A study of Mus musculus with 22 samples.

Results

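The genes described here are 7 subunits of voltage-gated calcium channels and 3 Trpm cation channels, measured in isolated pancreatic islets: the pore (alpha1) subunits Cacna1a, Cacna1c, Cacna1d and Cacna1h, the auxiliary subunits Cacna2d1, Cacnb2 and Cacnb3, and the channels Trpm5, Trpm4 and Trpm2. They were chosen by name. All 10 were found among the 57010 genes of the deposited table, and all 10 were among the 16756 genes that reached 1 TPM in at least 5 libraries, the filter used for testing. TPM, the deposited unit, is transcript abundance per length, scaled so that each library sums to 1000000. Poly(A) RNA was sequenced from the islets of 22 male mice, each library from 1 mouse. Their age is labelled as 5.5 weeks, and the column names of the deposited values give a range of weeks around it. The mice carried either wild-type MafA (WT) or a heterozygous MafA S64F allele (Het), MafA being a transcription factor of mature beta cells. Each genotype was present on 2 genetic backgrounds, C57 and Mixed in the labels' terms, which gave 5 WT and 6 Het libraries on C57 and likewise 5 WT and 6 Het libraries on Mixed. Which strains make up Mixed is not given in the sources used here. The comparisons asked what the Het genotype changed on each background, whether that change depended on the background, and how C57 and Mixed islets of the same genotype compared.

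In beta cells, closure of potassium channels by glucose metabolism depolarises the membrane, voltage-gated calcium channels open, and the calcium that enters triggers exocytosis of insulin. The alpha1 subunit forms the pore and sets the current type, the beta subunit carries it to the membrane and shifts its gating, and the alpha2delta subunit raises the number of channels at the surface. TRPM5 and TRPM4 are opened by intracellular calcium and pass monovalent cations, which adds to depolarisation. TRPM2 is a calcium-permeable channel opened by ADP-ribose and by oxidative stress.

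Mafa mRNA was lower in every Het library than in any WT library of the same background. Mafa was at 362 to 571 TPM in C57 WT, 93.8 to 152 in C57 Het, 440 to 775 in Mixed WT and 95.2 to 199 in Mixed Het libraries. The deposited values do not separate the alleles, so these Mafa levels are a result and do not check the genotype labels. Pearson correlations between libraries of a group were at least 0.9497 over the tested genes on the log2(TPM + 1) scale, and no library duplicated another. The beta cell markers (Ins1, Ins2, Iapp, Nkx6-1, Slc2a2, Ucn3 and G6pc2) held on average 42.8% of the total in C57 WT and 35.02% in C57 Het libraries. On the Mixed background these shares were 43.3% (WT) and 31.3% (Het). By gene, 1 of these 7 passed as higher and 1 as lower in C57 Het islets (G6pc2 and Ins1, chosen after their values were seen), and 4 as lower in Mixed Het islets. Beside these counts and the next, 26.4% of all tested genes passed as higher and 11.6% as lower in C57. In Mixed these shares of all tested genes were 30.7% and 13.5%. In Mixed Het islets 5 of 5 tested ductal, 6 of 6 immune and 4 of 7 mesenchymal markers passed as higher, against 2, 0 and 0 in C57 Het, where 1 immune and 1 mesenchymal marker passed as lower. Their sums in Mixed WT and Het ranged from 112 to 170 and 173 to 544 TPM (ductal), 178 to 237 and 271 to 541 (immune), and 137 to 206 and 131 to 539 (mesenchymal). The mitochondrial share of TPM was 4.27% to 9.76% in C57 WT, 3.86% to 4.39% in C57 Het, 4.37% to 9.76% in Mixed WT and 2.80% to 4.06% in Mixed Het libraries. The part of these measures in the results that follow was not tested. The values are TPM, which keep no record of depth, so the number of reads behind each value is unknown. Because TPM are per length, levels of different genes can be compared within a library, though libraries differed in their representation of long transcripts, described further on.

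Upstream sequences are shown for Trpm5 and Trpm2, the members that fell most, and for Cacna1c, the member whose upstream windows held a MAF half-site. They come from RefSeq on build GRCm38.p6, whereas the study's files used mm39, so their coordinates belong to GRCm38.p6 and not to the deposited data. The table held windows for 7 of the 10 genes and 12 start sites. Each window below is read along the gene and ends at the base before the RefSeq start. Bases after each start were looked for in transcripts of the gene from another annotation. They were found for the Trpm5 start and the Cacna1c starts shown, and not for the Trpm2 start. The Trpm5 window lies at chr7:143094643-143094892 and the Trpm2 window at chr10:77969873-77970122, both on the minus strand.
Trpm5: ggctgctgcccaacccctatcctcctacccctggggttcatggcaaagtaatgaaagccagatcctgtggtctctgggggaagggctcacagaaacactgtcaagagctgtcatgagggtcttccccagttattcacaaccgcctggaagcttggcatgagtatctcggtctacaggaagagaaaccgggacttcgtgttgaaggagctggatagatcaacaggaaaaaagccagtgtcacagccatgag
Trpm2: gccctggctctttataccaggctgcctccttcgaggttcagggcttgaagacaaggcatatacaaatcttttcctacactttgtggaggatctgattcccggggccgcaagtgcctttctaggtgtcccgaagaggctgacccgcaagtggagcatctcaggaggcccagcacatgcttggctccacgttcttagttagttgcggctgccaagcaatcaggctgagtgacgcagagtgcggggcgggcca
The MAF half-site TGCTGA, searched on both strands (reverse complement TCAGCA), occurred in none of these letters. Across all windows of 250 bases before a start in the table, 16.1% of 32851 held it. Of the 12 windows of these genes 2 held it, a share near that of all windows. The longer form TGCTGAC, which contains the first, occurred in 3.81% of all windows and in 0 of the 12 windows of these genes. A match was found at 2 of the 3 Cacna1c starts, and at no other start of these genes. The stretches of 60 bases around them are at chr6:119196580-119196639 and chr6:118758124-118758183, minus strand, with the match in capitals.
Cacna1c, first base of the match 203 bases before the start: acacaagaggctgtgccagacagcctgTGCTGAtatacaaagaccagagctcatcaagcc
Cacna1c, first base of the match 182 bases before another start: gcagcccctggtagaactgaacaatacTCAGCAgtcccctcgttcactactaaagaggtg
A match is a description of letters, and its absence says only that these letters are not in this window.

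Het islets on both backgrounds had less Trpm5 and Trpm2 and more Cacna1h than WT islets, and within each background the Het and WT libraries of these 3 genes did not overlap. Cacna1a was lower in C57 Het islets, Cacna1d and Cacna1c were lower in Mixed Het islets, and Cacna2d1 was higher in C57 Het islets. Cacnb2, Cacnb3 and Trpm4 did not pass the test in either genotype comparison, though each did under some other setting. In limma with Benjamini-Hochberg adjustment over all tested genes, 5 of the 10 passed an adjusted p of 0.05 in C57 (2 higher, 3 lower), where 38.0% of all tested genes did. In Mixed, 5 of the 10 passed (1 higher, 4 lower), where 44.1% of all tested genes did. The shares of members that passed were thus near the background. By direction, 26.4% of all tested genes passed as higher and 11.6% as lower in C57, and 30.7% and 13.5% in Mixed. Het and WT libraries did not overlap for 3 of the 10 genes in C57 and 4 in Mixed, beside 21.0% and 23.6% of all tested genes. The median log2 difference of the 10 genes was -0.14 in C57 and -0.26 in Mixed, beside 0.08 and 0.10 over all tested genes. In bulk islets, fewer cells of a type and less RNA per cell cannot be told apart.

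**Figure D1:**
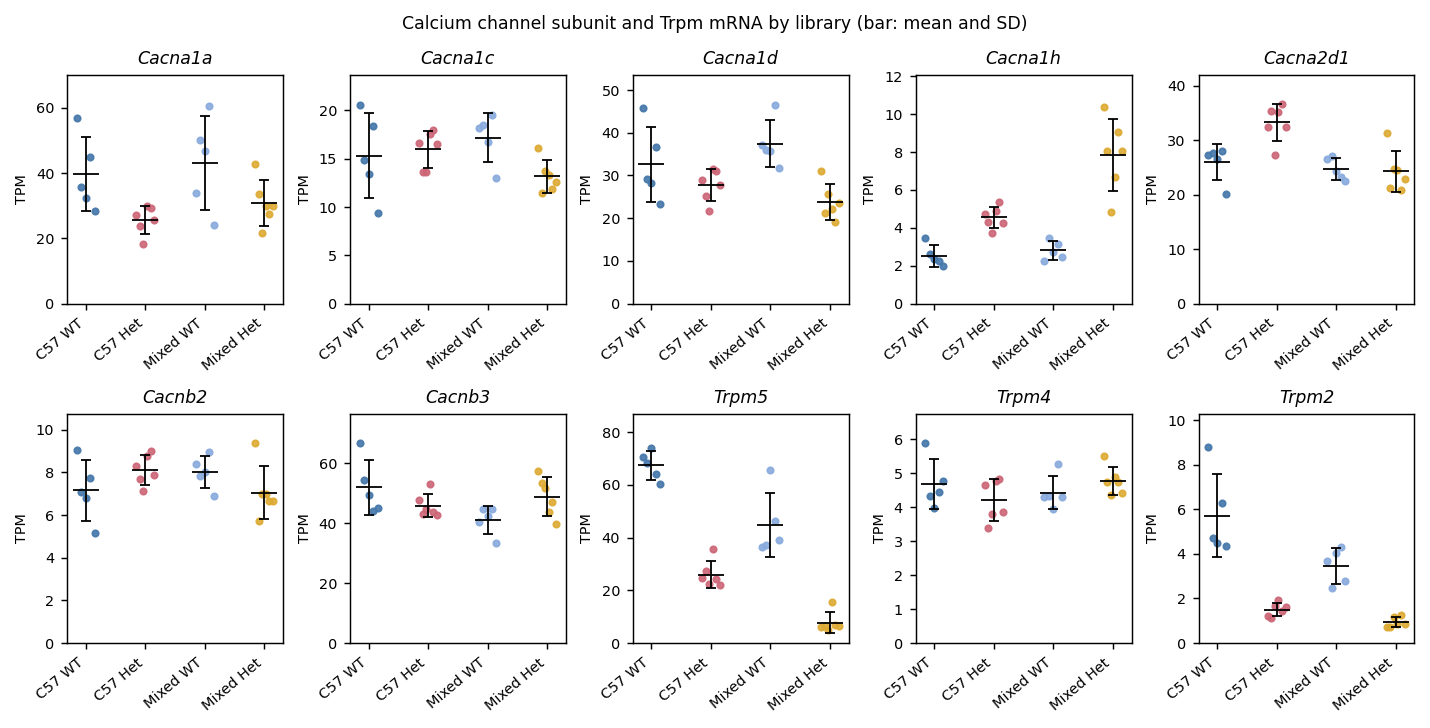
TPM of each of the 10 genes (vertical axes) in every library, by group. Points are libraries, and bars show the mean and SD of 5 or 6 mice. Trpm5 and Trpm2 were lower, and Cacna1h higher, in every Het library than in any WT library of the same background.

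Trpm5, a calcium-activated cation channel known in taste cells and beta cells, was the most abundant Trpm gene in WT islets. It was at 70.5, 68.5, 74.2, 64.1 and 60.2 TPM in the C57 WT libraries. In the 6 C57 Het libraries its lowest, median and highest values were 22.04, 24.5 and 35.6 TPM. The groups did not overlap, and the Het mean was 38.5% of the WT mean. The log2(TPM + 1) difference was -1.36 (SE 0.20, limma adjusted p = 2.45e-05). In Mixed WT libraries Trpm5 was at 36.5, 37.3, 65.6, 46.3 and 39.0 TPM. In Mixed Het libraries the lowest, median and highest were 4.91, 6.54 and 15.5 TPM. These groups did not overlap either, and the Het mean was 17.1% of the WT mean, with a log2 difference of -2.46 (SE 0.20, limma adjusted p = 4.67e-09).

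On the log2 scale the genotype difference of Trpm5 was larger on the Mixed background. In TPM the fall between group means was not larger there. The interaction, Het minus WT in Mixed less Het minus WT in C57, was -1.10 on the log2 scale (SE 0.28, limma adjusted p = 0.0224). Trpm5 was the only one of the 10 genes to pass this test, where 7.36% of all tested genes did. The adjusted p was 0.0514 without the filter on low values and 0.0596 with a library measure of long transcripts, described further on, as a covariate. The adjusted p stayed between 0.000581 and 0.0412 when any 1 of the 22 libraries was left out. By group mean Trpm5 fell in the order C57 WT (67.5 ± 5.45 TPM, SD, n = 5), Mixed WT (44.9 ± 12.2, n = 5), C57 Het (26.0 ± 5.06, n = 6) and Mixed Het (7.69 ± 3.91, n = 6). The first and second of these overlapped, through a single Mixed WT library at 65.6 TPM, and their difference of -0.61 did not pass the test (limma adjusted p = 0.0579). Without that library it was -0.75 (limma adjusted p = 0.0231). It also passed without Mixed Het replicate 4 (0.00758), under quantile normalization (0.0332), on the total without the most abundant genes (0.0359), with the WT libraries alone (0.0386) and with sample weights (0.0207).

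Trpm2 was lower in Het islets on both backgrounds, and its interaction of 0.21 did not pass (limma adjusted p = 0.568). It was at 8.79, 4.70, 4.48, 6.27 and 4.37 TPM in C57 WT libraries, and in C57 Het libraries at 1.11 (lowest), 1.52 (median) and 1.94 TPM (highest). The groups did not overlap, and the Het mean was 26.1% of the WT mean. The log2(TPM + 1) difference was -1.40 (SE 0.15, limma adjusted p = 6.18e-07). In Mixed WT libraries Trpm2 was at 3.68, 2.46, 4.04, 4.30 and 2.80 TPM, and in Mixed Het libraries at 0.715, 0.866 and 1.24 TPM (lowest, median and highest). These did not overlap, and the Het mean was 26.98% of the WT mean. The difference was -1.19 (SE 0.15, limma adjusted p = 2.16e-06). At levels this low, adding 1 to each value makes the log2 difference smaller than that of the TPM themselves.

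Trpm4, the closest relative of Trpm5, gave no such pattern. Its group means were 4.68 ± 0.739 TPM in C57 WT, 4.22 ± 0.615 in C57 Het, 4.43 ± 0.495 in Mixed WT and 4.78 ± 0.415 in Mixed Het. The libraries of all 4 groups overlapped. The Het minus WT difference was -0.12 in C57 (95% confidence interval -0.33 to 0.08) and 0.09 in Mixed (-0.11 to 0.29), and neither passed the test (limma adjusted p = 0.337 and 0.471). Under median-of-ratios scaling Trpm4 passed as lower in C57 (-0.22, limma adjusted p = 0.0487). As a share of the summed TPM of the 8 Trpm genes, Trpm5 was 72.1% ± 3.76 in C57 WT, 52.5% ± 4.15 in C57 Het, 62.6% ± 6.17 in Mixed WT and 25.8% ± 9.44 in Mixed Het. Trpm7, a channel with a kinase domain, was 14.5%, 29.2%, 22.2% and 45.3% in the same order, which made it the largest share in Mixed Het islets. The summed family level was 93.8 ± 8.61, 49.3 ± 6.55, 71.0 ± 11.9 and 29.1 ± 3.65 TPM. Of this, the 5 Trpm genes outside the members, Trpm7 among them, held 15.9 ± 3.15, 17.6 ± 2.21, 18.2 ± 1.67 and 15.7 ± 2.10 TPM. A larger Trpm7 share therefore does not by itself show a higher Trpm7 level.

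**Figure D2:**
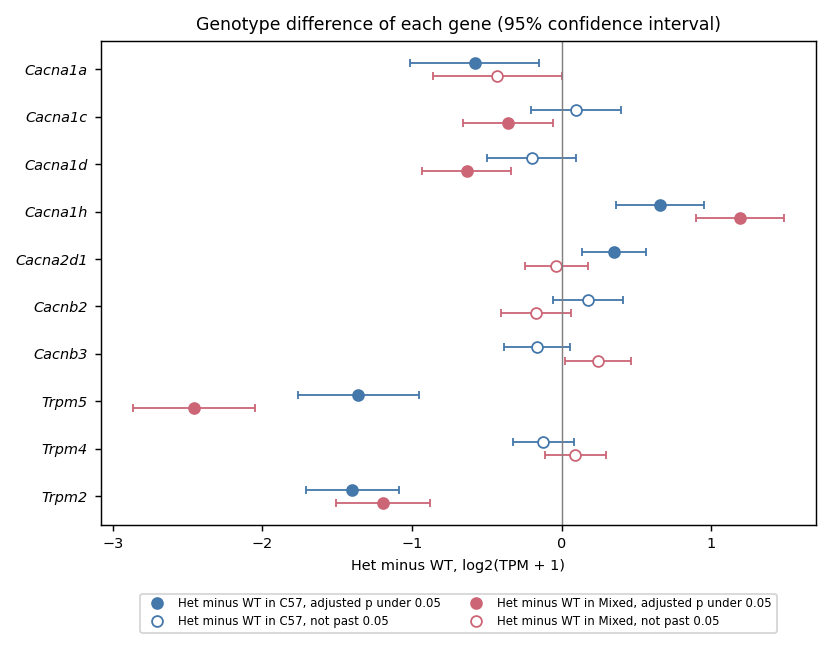
Het minus WT difference on the log2(TPM + 1) scale (horizontal axis) for each gene, in C57 (blue) and Mixed (red) islets. Bars are 95% confidence intervals from limma, filled points have an adjusted p under 0.05. Trpm5 lies at -1.36 and -2.46, Trpm2 at -1.40 and -1.19, and Cacna1h at 0.66 and 1.19.

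Cacna1h, the pore of a T-type channel that opens at low voltage, was the only pore subunit among the members that was higher in Het islets. It was at 3.47, 2.64, 2.34, 2.24 and 1.96 TPM in C57 WT libraries, and in C57 Het libraries at 3.75, 4.52 and 5.36 TPM (lowest, median and highest). In Mixed WT it was at 2.26, 3.46, 2.74, 3.16 and 2.45 TPM, and in Mixed Het at 4.86, 8.05 and 10.4 TPM. On neither background did the genotypes overlap. On the log2(TPM + 1) scale C57 Het islets were higher by 0.66 (SE 0.14, limma adjusted p = 0.0011) and Mixed Het islets by 1.19 (SE 0.14, limma adjusted p = 1.02e-06). The interaction was 0.53 and did not pass (limma adjusted p = 0.101), so a larger difference in Mixed was not shown by that test. Without Mixed Het replicate 3, the lowest of its group, it passed (limma adjusted p = 0.024). With the library measure of long transcripts as a covariate the C57 difference was 0.50 (limma adjusted p = 0.0557).

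The Cacna1h level moved across libraries with that of Hhex, a transcription factor of delta cells. The 3 named genes with the highest Pearson correlation to it over the 22 libraries were Slc16a7 (0.974), Cacna2d2 (0.973) and Hhex (0.965). After group means were subtracted the correlations were 0.888, 0.853 and 0.810. These are descriptions over libraries that share their makeup of cells. Slc16a7 reached 1 TPM in Het libraries only, its highest WT value being 0.932 TPM. It thus passed the filter through Het groups, which favours a higher Het value. All 4 delta cell markers (Sst, Hhex, Rbp4 and Ghsr) were higher in Het islets on both backgrounds, with a median log2 difference of 0.89 in C57 and 1.43 in Mixed. Their summed level ranged from 5539 to 8889 TPM in C57 WT, 10010 to 13919 in C57 Het, 7647 to 15969 in Mixed WT and 14672 to 32011 in Mixed Het libraries. The Mixed Het library lowest in Cacna1h, at 4.86 TPM, was also lowest in Hhex of its group, at 10.9 TPM. The alpha cell markers Gcg, Irx2, Ttr, Gc and Slc38a5 were higher too on both backgrounds, the sum of these 5 ranging from 19117 to 57506 TPM in C57 WT and 71641 to 117770 in C57 Het. In Mixed WT the alpha sum was 15898 to 27619 TPM, and in Mixed Het 65740 to 107737. None of the 4 delta or 5 alpha markers was at 0 in any library. Of all tested genes, 26.4% passed as higher in C57 and 30.7% in Mixed. The part of these cells in the Cacna1h result was not tested.

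**Figure D3:**
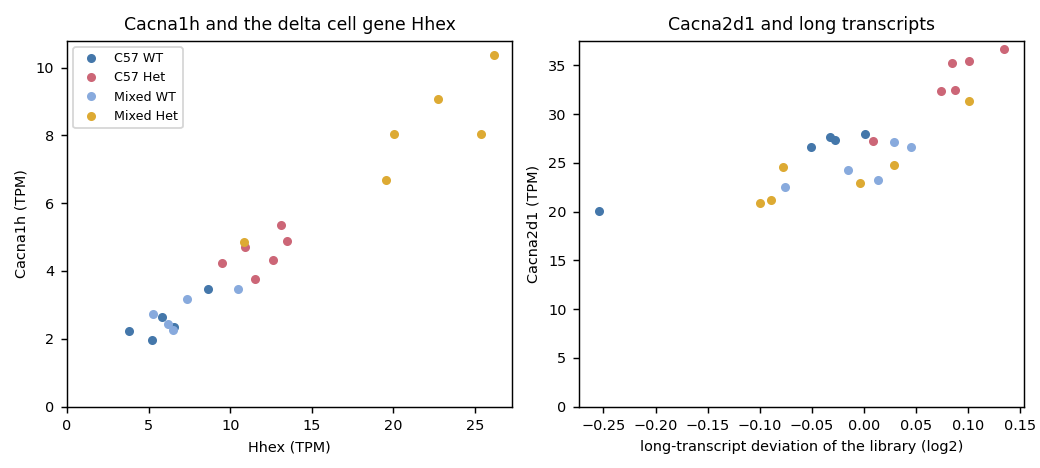
Left, Cacna1h (vertical axis, TPM) against Hhex (horizontal axis, TPM) in the 22 libraries. Right, Cacna2d1 (vertical axis, TPM) against the long-transcript deviation of each library (horizontal axis, log2). Colours give the groups. Cacna1h rises with Hhex within as well as between groups, and Cacna2d1 is lowest, at 20.1 TPM, in the C57 WT library with the lowest long-transcript deviation, -0.25.

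The high-voltage pore subunits were lower in Het islets where they differed. Cacna1a, the pore of P/Q-type channels, was at 56.7, 35.6, 32.3, 44.8 and 28.5 TPM in C57 WT libraries and at 18.3, 26.3 and 29.97 TPM in C57 Het (lowest, median and highest). The highest Het libraries reached the lowest WT library. The log2 difference was -0.58 (SE 0.21, limma adjusted p = 0.0312). This call was lost without C57 WT replicate 1, the library at 56.7 TPM, where the difference was -0.44 (limma adjusted p = 0.109). It was also lost without C57 WT replicate 4 (0.0712), C57 Het replicate 2 (0.0554) or C57 Het replicate 3 (0.072), without the filter (0.0734) and with a score of acinar genes as a covariate (0.139). In Mixed islets Cacna1a was at 33.8, 50.1, 46.8, 60.5 and 24.0 TPM in WT and at 21.5, 29.9 and 42.7 TPM in Het. The difference of -0.43 did not pass (limma adjusted p = 0.0975). It passed under median-of-ratios scaling (-0.56, limma adjusted p = 0.0185), quantile normalization (-0.51, 0.026), the total without the most abundant genes (-0.55, 0.0218) and sample weights (0.0481). It also passed without Mixed WT replicate 5 (0.0131) or Mixed Het replicate 1 (0.0481).

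Cacna1d and Cacna1c form L-type channels, which carry much of the calcium current of beta cells. Cacna1d was at 37.1, 35.8, 35.7, 46.5 and 31.8 TPM in Mixed WT and at 19.2, 22.9 and 31.1 TPM in Mixed Het libraries. The groups did not overlap, though the highest Het library was within 1 TPM of the lowest WT library. The log2 difference was -0.63 (SE 0.14, limma adjusted p = 0.0013). C57 islets gave overlapping groups, where the values were 45.9, 29.1, 28.3, 36.6 and 23.3 TPM in WT and 21.8, 28.4 and 31.4 TPM in Het, with a difference of -0.20 that did not pass (limma adjusted p = 0.284). Other settings did call Cacna1d lower in C57: median-of-ratios scaling (-0.32, limma adjusted p = 0.0381), quantile normalization (-0.34, 0.0263) and the long-transcript covariate (-0.62, 0.00232). The interaction of -0.43 did not pass (limma adjusted p = 0.182) and was 0.05 with that covariate, so the data do not place the Cacna1d difference on 1 background. With sample weights it passed (limma adjusted p = 0.0182). Cacna1c was at 18.2, 18.5, 16.7, 19.5 and 13.05 TPM in Mixed WT and at 11.4, 12.97 and 16.1 TPM in Mixed Het. Its difference of -0.36 (SE 0.14) lay at the threshold, with a limma adjusted p of 0.049997, and was called in only 5 of the 22 fits that left out 1 library. In C57 Cacna1c was at 20.6, 14.8, 13.4, 18.3 and 9.36 TPM in WT and at 13.6, 16.6 and 17.9 TPM in Het. That difference, 0.10, did not pass (limma adjusted p = 0.635), and its sign was negative under each of the 3 other scalings of the libraries, the lowest of them -0.04. With the long-transcript covariate it was -0.35 and passed as lower (limma adjusted p = 0.0428).

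The balance between pore subunits was also compared within each library. In C57 islets the log2 ratio of Cacna1d to Cacna1c averaged 1.05 ± 0.12 (SD) for WT against 0.76 ± 0.07 for Het, and in Mixed islets 1.08 ± 0.14 for WT against 0.80 ± 0.10 for Het. On each background the lowest WT library lay above the highest Het library. The ratio is of TPM + 1 values, so it still moves a little with the scaling of a library, and the Mixed gap was small (0.920 against 0.909). No test was made of it. The part of long-transcript representation, described further on, in this ratio and in the shares below was not tested. As a share of the summed TPM of the measured alpha1 genes, Cacna1a held 41.03% ± 1.13 for C57 WT against 31.4% ± 1.38 for C57 Het, and Cacna1d 33.9% ± 0.664 against 34.1% ± 0.203. In Mixed islets Cacna1a was 38.8% ± 6.24 in WT and 35.2% ± 3.73 in Het, and Cacna1d 34.9% ± 3.83 and 27.5% ± 3.44. Cacna1h held 2.68% in C57 WT against 5.605% in C57 Het, and 2.63% in Mixed WT against 8.997% in Mixed Het. Cacna1g, another T-type pore, was 0.747%, 1.26%, 0.976% and 4.04% in the order C57 WT, C57 Het, then Mixed WT, Mixed Het. The summed pore level was 96.4 ± 26.2, 81.4 ± 10.9, 109 ± 21.8 and 87.1 ± 15.04 TPM in the same order.

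**Figure D4:**
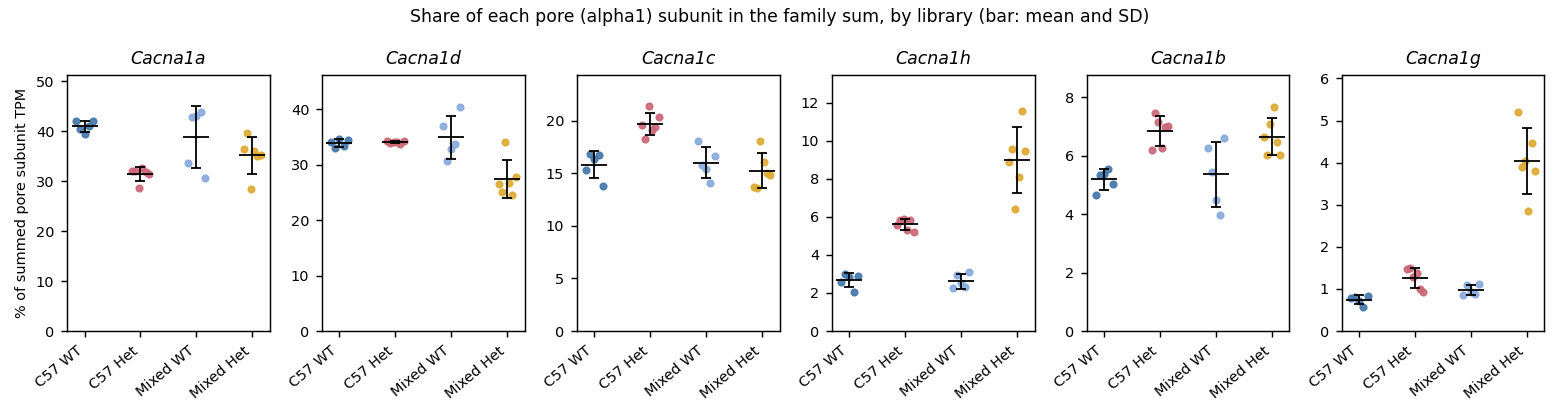
Share of 6 pore subunit genes in the summed TPM of the measured alpha1 genes (vertical axes, percent) in each library, by group. Points are libraries, bars the mean and SD. The Cacna1h share is higher in Het libraries on both backgrounds, and the Cacna1a share is lower in C57 Het than in C57 WT libraries.

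Of the auxiliary subunits, Cacna2d1, the main alpha2delta subunit of these islets, was higher in C57 Het islets. It was at 27.4, 27.7, 26.6, 27.9 and 20.1 TPM in C57 WT and at 27.2, 33.9 and 36.7 TPM in C57 Het libraries. Only the lowest Het library lay among the WT values. The log2 difference was 0.35 (SE 0.10, limma adjusted p = 0.0101). In Mixed islets it was at 26.6, 27.1, 24.3, 23.3 and 22.5 TPM in WT and at 20.9, 23.7 and 31.3 TPM in Het, a difference of -0.04 (95% confidence interval -0.25 to 0.18, limma adjusted p = 0.799). The interaction of -0.39 did not pass (limma adjusted p = 0.0993). It passed under median-of-ratios scaling (limma adjusted p = 0.0155), quantile normalization (0.0262), the total without the most abundant genes (0.0355) and sample weights (0.0122), and without Mixed Het replicate 1 (0.0367). With the long-transcript covariate it was -0.0038 (limma adjusted p = 0.984).

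Cacna2d1 moved with the representation of long transcripts in a library. The long-transcript deviation is the median log2 deviation from the gene means over the longest 10% of tested genes with a known length (longest transcript of at least 6383 bases) minus the same median over all genes with a length. Its group mean was -0.07 ± 0.10 in C57 WT, 0.08 ± 0.04 in C57 Het, -0.00 ± 0.05 in Mixed WT and -0.02 ± 0.08 in Mixed Het. After group means were subtracted, its Pearson correlation over the 22 libraries was 0.902 with Cacna2d1, 0.831 with Cacnb2, 0.819 with Cacna1c and 0.767 with Cacna1d. It was -0.15 with Trpm5, 0.195 with Trpm2 and 0.315 with Cacna1h. Of the 10 genes, 6 belong to those longest genes, from which the measure is made. With this measure as a covariate the Cacna2d1 difference in C57 was 0.02 (limma adjusted p = 0.892), and that of Cacna1a was -0.99 (0.00765). C57 WT replicate 5 had the lowest deviation of all libraries and the highest mitochondrial share of its group, 9.76%, and without it the Cacna2d1 difference was 0.26 (limma adjusted p = 0.042). With the acinar score as a covariate it was 0.29 and did not pass (limma adjusted p = 0.102). Acinar markers were higher in C57 Het islets for 9 of 10 genes, where 26.4% of all tested genes were. Their sum ranged from 219 to 407 TPM in C57 WT and from 272 to 1720 in C57 Het. Het and WT libraries did not overlap in C57 for 1 of the 10, beside 21.0% of all tested genes. In Mixed Het islets 2 of the 10 passed as higher, beside 30.7% of all tested genes.

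The beta subunits did not pass the test as designed, but passed under other settings. Cacnb3, which made up 67.6% to 73.1% of summed beta subunit TPM by group mean, was at 51.9 ± 9.15, 45.8 ± 3.95, 41.1 ± 4.58 and 48.8 ± 6.53 TPM in that same order of groups. The Het minus WT difference was -0.16 in C57 (95% confidence interval -0.38 to 0.06) and 0.24 in Mixed (0.02 to 0.46), with limma adjusted p of 0.234 and 0.0701. In C57 it passed as lower under each of the 3 other scalings (-0.28, -0.28 and -0.27, limma adjusted p = 0.0295, 0.0258 and 0.0272). In Mixed it passed as higher with the long-transcript covariate (limma adjusted p = 0.0356), without C57 WT replicate 1 (0.0406) and without Mixed Het replicate 6 (0.0299). Cacnb2 was at 7.16 ± 1.43, 8.12 ± 0.708, 8.01 ± 0.759 and 7.05 ± 1.23 TPM, with differences of 0.18 and -0.17 (limma adjusted p = 0.228 in both). In Mixed it passed as lower under median-of-ratios scaling (-0.29, limma adjusted p = 0.00859), quantile normalization (-0.26, 0.0196), the total without the most abundant genes (-0.28, 0.0212) and sample weights (-0.22, 0.0496). After group means were subtracted, Cacnb2 correlated over the 22 libraries with Cacna1c (0.921) and Cacna1d (0.908), and Cacna1c with Cacna1d (0.906). These 3 genes also shared the correlation with the long-transcript deviation given above.

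Between backgrounds, Trpm2 alone of the 10 passed the test in WT islets, where 11.3% of all tested genes did. Its lowest C57 WT library, at 4.37 TPM, lay just above its highest Mixed WT library, at 4.30 TPM. The share of all tested genes that separate in this way is not given here. Trpm2 was lower in Mixed WT than in C57 WT by -0.57 on the log2 scale (limma adjusted p = 0.0208). This call was lost without C57 WT replicate 1 (0.0637), without Mixed WT replicate 2 (0.067) and when only the WT libraries entered the fit (0.12). Cacnb3 differed by -0.32 in WT and did not pass (limma adjusted p = 0.0643). It passed as lower in 4 of 11 settings other than leaving out a library. In Het islets 3 of the 10 passed, where 20.5% of all tested genes did. Trpm5 was lower in Mixed Het than in C57 Het (-1.71, limma adjusted p = 3.88e-06) and Cacna2d1 was lower (-0.44, adjusted p = 0.00266). Cacna1h was higher (0.65, limma adjusted p = 0.00181). Trpm2 differed by -0.37 in Het and did not pass (limma adjusted p = 0.0754). It passed in 5 of 10 settings other than leaving out a library. Its Mixed mean was 62.5% of the C57 mean in Het islets and 60.4% in WT islets. These comparisons share their libraries with the genotype comparisons. With the long-transcript deviation as a covariate the Cacna2d1 difference was -0.22 (limma adjusted p = 0.0135).

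Genes that followed Trpm5 and Trpm2 most closely were taken by the same rule as for Cacna1h. For Trpm5 these were Galnt14 (Pearson r 0.964 over the 22 libraries), Col6a6 (0.962) and Cdh7 (0.956), and after group means were subtracted 0.755, 0.474 and 0.423. For Trpm2 they were Gipr, the receptor of the incretin GIP (0.949), Ttc16 (0.949) and Aloxe3 (0.948), and after subtraction 0.596, 0.696 and 0.604.

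Of 19 other voltage-gated calcium channel genes, chosen by name, 8 passed the filter. Of these, 3 passed the test as higher in C57 and 7 in Mixed, and 0 as lower, beside the 26.4% and 30.7% of all tested genes that passed as higher. These counts are a description only, since a gene such as Cacna1i reached 1 TPM in no library outside Mixed Het, and the filter then favours a higher Het value. Cacna2d2, an alpha2delta subunit, was at 1.71 ± 0.369 and 3.15 ± 0.478 TPM in C57 WT and Het and at 1.89 ± 0.649 and 5.999 ± 1.702 TPM in Mixed WT and Het. Its differences were 0.62 and 1.26 (limma adjusted p = 0.00697 and 4.67e-06). Cacna2d4 was at 0.868 ± 0.330 and 1.53 ± 0.335 TPM in C57 WT and Het, and Cacna1i at 0.263 ± 0.0915 and 0.577 ± 0.183 TPM. In Mixed, Cacna1g rose by 1.13 (limma adjusted p = 2.36e-06) and Cacng4 by 1.07 (0.000423). The Cacna1g interaction was 0.89 (limma adjusted p = 0.0124). With the long-transcript deviation as a covariate 0 of the 8 passed in C57 and 7 in Mixed. Of the other Trpm genes 2 of 5 passed the filter, and neither passed the test.

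Channel regulators moved in both directions. Of 14 tested, 5 passed as higher and 3 as lower in C57, and 4 as higher and 2 as lower in Mixed, beside 26.4% and 11.6%, and 30.7% and 13.5%, of all tested genes. Stac2, an adaptor of L-type channels, rose by 0.78 in C57 and 0.97 in Mixed (limma adjusted p = 0.00338 and 0.000409). Rims2, an active zone protein that binds calcium channels, rose by 0.60 in C57 (limma adjusted p = 0.000131). Calm2 rose by 0.29 in C57 and Calm3 by 0.52 in Mixed, both calmodulin genes with near-identical copies that make their counting uncertain. Cabp1, a calmodulin-like protein that modulates calcium channels, was at 12.6 ± 2.95 and 5.45 ± 0.661 TPM in C57 WT and Het and at 16.2 ± 1.597 and 9.50 ± 1.16 TPM in Mixed WT and Het. It fell by 1.05 and by 0.71 on the log2 scale (limma adjusted p = 1.50e-06 and 6.92e-05). Stac3 fell by 0.68 and Rrad, a small GTPase that inhibits calcium channels, by 0.61 in C57 (limma adjusted p = 0.00513 and 0.0214). Gem, a GTPase of the same family, fell by 1.10 in Mixed (limma adjusted p = 0.0191). With the acinar score as a covariate Stac3, Rrad and Gem did not pass (limma adjusted p = 0.054, 0.206 and 0.0711), and with the long-transcript covariate Stac2 did not pass in C57 (0.103).

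Of 12 genes of calcium stores tested, 3 were higher and 1 lower in C57, and 5 were higher and 0 lower in Mixed. All tested genes were higher in 26.4% and lower in 11.6% of cases in C57 and in 30.7% and 13.5% in Mixed, so the C57 count is near the background. Under median-of-ratios scaling these became 1 higher and 2 lower, and 3 higher and 2 lower. Itpr1, a receptor for inositol trisphosphate, was at 17.2 ± 5.64 and 36.0 ± 5.64 TPM in C57 WT and Het and 12.2 ± 2.52 and 29.3 ± 5.92 TPM in Mixed WT and Het. It rose by 1.07 and 1.20 (limma adjusted p = 0.000116 and 1.72e-05). Itpr2 fell by 0.68 in C57 (limma adjusted p = 5.44e-05). Atp2a2, the store calcium pump, was higher by 0.39 in C57 (limma adjusted p = 0.02), a call lost under each of the 3 other scalings. Tmem38b, a counter-ion channel of the store, was higher by 0.23 in C57 (limma adjusted p = 0.0183). In Mixed, Orai2, a pore of store-operated entry, rose by 0.45 (limma adjusted p = 0.000491) and Tmem38a by 0.42 (0.0107). Both Tmem38 calls were lost under median-of-ratios scaling.

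Of 13 export and mitochondrial uptake genes tested, 5 were higher and 0 lower in C57, and 7 were higher and 1 lower in Mixed. These counts are a description only, to be read beside the same shares of all tested genes. The 13 include Slc8a3, which the filter admitted through Mixed Het alone, where it favours a higher Het value. Mcub, a subunit that dampens mitochondrial calcium uptake, rose by 0.76 and 1.23 (limma adjusted p = 0.000313 and 5.84e-07). Slc8a1, a sodium-calcium exchanger, rose by 0.47 in C57 (limma adjusted p = 0.00286), a call lost with the long-transcript covariate (0.298). Slc8a3, a related sodium-calcium exchanger, was at 0.119 ± 0.060 TPM in Mixed WT and 3.18 ± 1.76 in Mixed Het. It reached 1 TPM in Mixed Het libraries only and so passed the filter through that group, and no test is given for it. Atp2b2, a plasma membrane calcium pump, fell by 0.43 in Mixed (limma adjusted p = 0.0152).

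**Figure D5:**
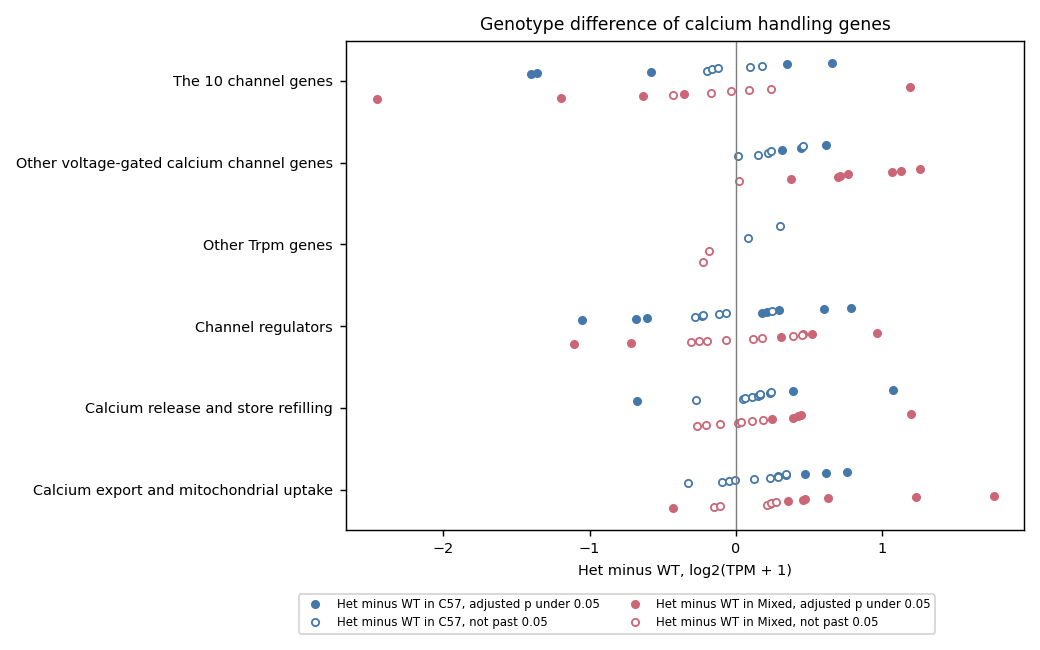
Het minus WT difference on the log2(TPM + 1) scale (horizontal axis) of every tested gene in the 10 channel genes and the 5 calcium lists, in C57 (blue) and Mixed (red). Each point is a gene, filled where the adjusted p is under 0.05. The 8 tested genes of other voltage-gated channels lie at or above 0, a direction that the filter on low values fixes in part. Slc8a3, in the export list, passed that filter through Mixed Het alone.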

How the data were processed

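Poly(A) RNA-seq of isolated islets from 22 mice was deposited as 1 table of TPM, made by the authors. Per the submitters' processing notes the tools included STAR 2.7.10b and MultiQC 1.7 with build mm39, without their roles. The counting tool and annotation are not given in the sources used here. TPM are relative to all RNA in a library: more of abundant transcripts lowers the rest. Each library sums to 1000000 TPM, and depth is unknown. The 10 members and the gene lists were chosen with earlier results of these data known. Here, log2(TPM + 1) was fitted with limma 3.58.1 (R 4.3.3; lmFit, eBayes with trend) as 4 group means over 22 libraries, for genes at 1 TPM or more in at least 5 libraries (16756 of 57010). 5 contrasts were tested, each with Benjamini-Hochberg adjustment over all tested genes and a threshold of 0.05. Replicates were separate mice and were numbered in accession order. Library numbers run through the groups in order, so library order and group cannot be told apart. Named genes were the members, Mafa, up to 3 genes each way with the largest log2 difference per list and genotype contrast among those past the threshold, and the 3 genes with the highest correlation to each member called in both genotype contrasts. Some genes that this rule or the marker lists name are not reported here. RefSeq promoter windows came from GRCm38.p6. Transcript lengths came from another annotation by gene identifier, for 16086 tested genes. The alternatives were another pseudocount, filters, scalings of the libraries, the contrast's libraries alone, eBayes without trend, sample weights, a score of acinar genes as covariate and leaving out each library. The long-transcript covariate was chosen after seeing the data. The script was tested on simulated data.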

Additional observations from a re-analysis of the deposited data

Results flagged for a closer look

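Single libraries stood apart from the rest of their group in 4 of the 40 gene and group combinations checked, where chance flags about 1 in 20. Cacna2d1 was at 20.1 TPM in C57 WT replicate 5, beside 26.6 to 27.9 in the other 4 libraries of that group. This library also had the lowest long-transcript deviation. In Mixed Het replicate 1 Cacna2d1 was at 31.3 TPM, beside 20.9 to 24.8, and Cacnb2 at 9.38 TPM, beside 5.74 to 6.97. Trpm5 was at 15.5 TPM in Mixed Het replicate 4, beside 4.91 to 6.70 in the other 5. That library also had the highest Mafa level of its group, 199 TPM. Without it the Trpm5 difference in Mixed was -2.66 and the interaction -1.30 (limma adjusted p = 8.25e-11 and 0.000581). The Trpm5 interaction of -1.10 was the only one of the 10 to pass in the fit as designed; under other scalings or sample weights other members passed too.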

How the results depend on the processing

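Trpm5 and Trpm2 stayed lower and Cacna1h higher, past the threshold, in both genotype comparisons under every alternative run in which they were tested, except Cacna1h in C57 with the long-transcript covariate (0.50, adjusted p = 0.0557). Leaving out 1 library moved the members called to between 4 and 5 in C57, 4 and 6 in Mixed, 1 and 2 for the interaction, 0 and 2 for the backgrounds in WT and 3 and 4 in Het. Genes called then ranged from 5112 to 6804, 6220 to 7874, 762 to 1767, 1387 to 2355 and 2518 to 3863. Without the filter, 714 genes and 0 members passed the interaction. With a mean TPM of at least 5, which left 7 members, 3 were called in C57, 3 in Mixed and 0 between backgrounds in WT, with 1251 genes called there and 2223 in Het. Members called under median-of-ratios scaling were 8 in C57 (2 higher, 6 lower), 2 for the interaction and 2 between backgrounds in WT; under quantile normalization 3 and 3 for the latter pair; on the total without the most abundant genes 2 and 3. Median-of-ratios scaling moved the median of all genes in C57 from 0.08 to -0.01, and in Mixed from 0.10 to -0.01. With the contrast's libraries alone 831 genes differed between backgrounds in WT. Sample weights gave 2628 genes and 5 members for the interaction, 2 members in WT, and 6572 genes and 7 members in Het. The acinar covariate left 3663 genes and 3 members in C57. The long-transcript covariate left 3095 genes in C57 (1449 higher, 1646 lower), and 323 genes and 0 members for the interaction, with 3 members in WT. A pseudocount of 0.1 moved the Trpm2 to Trpm5 ratio difference in C57 to -0.45. The sign of these differences reversed, some from well away from 0. In C57, Cacna1c became -0.014 under median-of-ratios, -0.035 under quantile normalization, -0.0097 on the total without abundant genes and -0.35 with the long-transcript covariate, where it passed as lower (adjusted p = 0.0428). Trpm4 in Mixed became -0.020 under median-of-ratios and -0.011 on the total without abundant genes. The long-transcript covariate also gave Cacnb2 in C57 -0.15, Cacna2d1 in Mixed 0.013, interactions of 0.057 for Cacna1c, 0.046 for Cacna1d and 0.033 for Cacnb2 (-0.45, -0.43 and -0.35 without it), background differences in WT of -0.10 for Cacna1a and -0.018 for Cacna1c, and in Het of 0.039 for Cacna1c, 0.068 for Cacna1d and 0.036 for Cacnb2. Sample weights gave Trpm4 0.016 between backgrounds in WT. With 1 library left out, Cacna1c in C57 ranged from -0.057 to 0.21, Cacna2d1 in Mixed from -0.11 to 0.0030, the Cacna1a interaction from -0.036 to 0.29, and between backgrounds in WT Cacna1a from -0.047 to 0.28 and Trpm4 from -0.11 to 0.012. The cause was not tested. No paired analysis was possible because the labels give no replicate numbers shared between groups.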
